A study of Mus musculus with 23 samples.

Results

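The genes described here are 42 genes that act when cells enter S phase and copy their DNA. They were found by their symbols in a table of RNA counts from mouse pancreatic ductal adenocarcinoma cells. All 42 were among the 27207 genes of the table, and all 42 were among the 11144 that passed the filter on low counts and were tested. By role they comprised 10 genes of origin licensing and the replicative helicase, 9 of the fork polymerases, the sliding clamp and its loader, 3 of nucleotide supply, 7 of chromatin and histone supply, 9 of fork protection and repair, and 4 drivers of the step from G1 to S phase. They lay on 17 chromosomes.

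RNA was counted at the 3' end, with molecular barcodes, in 23 libraries from 6 groups of cultures. The KC cells came from a mouse with Ptf1a Cre/+ and the KPC cells from a mouse with Pdx1 Cre/+, drivers that act in the pancreas. Each genotype is taken here as a single line from 1 animal, though the library titles name the line in batch 1 alone. In batch 1, KC cells were grown as a 2D culture (n = 6), as organoids in floating collagen for 7 days (n = 3) or 13 days (n = 5), or in Matrigel for 13 days (n = 3). In batch 2, KC (n = 3) and KPC (n = 3) organoids were grown in floating collagen for 13 days. All media held serum. Collagenase was used to release organoids from their gel, whereas 2D cells went straight into lysis buffer, so culture form and handling cannot be told apart. The study named day 7 the extension phase and day 13 the lumen formation phase. The study described the day 7 and day 13 collagen and the Matrigel replicates of batch 1 as separate experiments. For the 2D and batch 2 libraries the sources used here do not say so, and the spread between these libraries may be technical. The p-values come from 1 fit of the 23 libraries. The spread behind each test is therefore estimated over all 6 groups, 2D included, and not from the compared groups alone.

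Before S phase, the MCM proteins are loaded onto replication origins with the help of CDC6, and Geminin keeps them from being loaded again once copying has begun. Cyclin E with its kinase, and transcription factors of the E2F family, carry the cell from G1 into S phase. E2F factors also activate many of the genes whose products then unwind, copy and repackage the DNA, which is why RNA of these genes is widely read as a mark of cycling cells. In bulk libraries, fewer cells in S phase and less of these RNAs in each cell cannot be told apart.

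The library totals ran from 1221451 to 2471058 counts, with a median of 1845921. No libraries were duplicates, but the 2D libraries stood in 2 sets. Libraries 1 to 3 held 1221451 to 1382736 counts with 4.99 to 5.76% mitochondrial counts, and libraries 4 to 6 held 1649327 to 2091391 counts with 2.51 to 3.01%. The chi-square per degree of freedom over genes was 21.6 to 33.7 between the sets and 1.27 to 2.90 within them. Day 13 collagen libraries 4 and 5 of batch 1 also differed from libraries 1 to 3 (4.64 to 6.75 between, 2.06 to 3.10 within) and held 4.44 to 4.83% mitochondrial counts against 3.01 to 3.73%. Both splits were seen in the data and are no group of the study, and counts of called members that rest on them are given for each set. In CPM, which are counts scaled to a common library size, 7 ductal markers summed to 7161 to 13992 in every library, endothelial markers to at most 2.67, fibroblast markers to 32.7 to 187 (1 of 8 at 0 throughout) and leukocyte markers (3 of 6 in the table) to 3.41 to 36.2, highest in Matrigel. Of the 5 acinar markers the table held Cela1, at 2.98 to 20.4.

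As a summary over the 42 genes, each gene's log2 CPM was turned into a z score over the 23 libraries and averaged. The score was highest at day 7, at 1.59 ± 0.0791 (SD, n = 3). It was 0.284 ± 0.428 (n = 6) in 2D and 0.0116 ± 0.111 (n = 3) in KPC organoids. It was below 0 in the remaining groups, at -0.298 ± 0.0607 (n = 3) in Matrigel, -0.609 ± 0.299 (n = 5) in day 13 collagen of batch 1 and -0.860 ± 0.101 (n = 3) in KC organoids of batch 2. The day 7 libraries, at 1.501 to 1.65, lay above every other library, of which the highest was a 2D library at 0.749. The 2D spread followed the 2 sets, with -0.143 to -0.0610 in libraries 1 to 3 and 0.607 to 0.749 in libraries 4 to 6. In day 13 collagen of batch 1, libraries 4 and 5 lay at -0.999 and -0.846 and the other libraries between -0.488 and -0.301, so that the Matrigel libraries (-0.365 to -0.247) lay within or above the range of libraries 1 to 3, and the KC libraries of batch 2 (-0.974 to -0.783) near libraries 4 and 5.

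**Figure D1:**
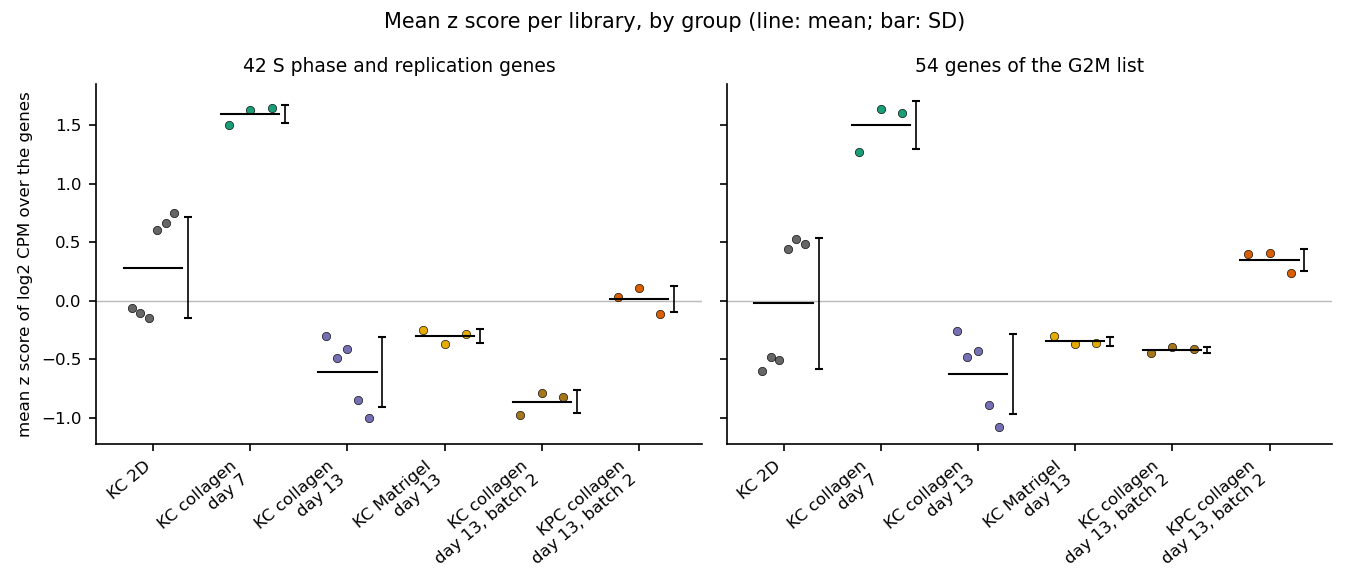
Mean z score of log2 CPM over the 42 replication genes and over 54 genes of G2 and mitosis, for each library (points) with the mean and SD of each group, across the 6 groups. Day 7 collagen stood highest on both, at 1.59 ± 0.0791 and 1.503 ± 0.204, and the 2D libraries were split.

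Gene by gene, day 7 had the highest mean CPM of the 6 groups for 38 of the 42. The exceptions were Gmnn, which encodes Geminin, and Cdca7, a chromatin cofactor, both highest in 2D, and Slbp, which binds histone mRNA stem-loops, and Clspn, the checkpoint mediator Claspin, both highest in KPC organoids. The margins were small for Gmnn, at 102.9 CPM in 2D and 101.6 CPM at day 7, and for Cdca7, at 24.7 and 22.7 CPM. 2D libraries 1 to 3 and 4 to 6 averaged 134 and 71.6 CPM for Gmnn, and 17.3 and 32.2 CPM for Cdca7. Slbp averaged 18.1 CPM in KPC and 17.96 CPM in KC organoids of batch 2. Clspn averaged 18.3 and 16.2 CPM there, and neither was called between them (Clspn at a log2 fold change of 0.18, SE 0.36, edgeR adjusted p = 0.81). The lowest mean was that of KC organoids of batch 2 for 30 genes, of day 13 collagen of batch 1 for 7 and of Matrigel for 5. Summed over the 42 genes, the level was 3156 ± 85.9 CPM at day 7 and 883 ± 26.2 CPM in KC organoids of batch 2.

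**Figure D2:**
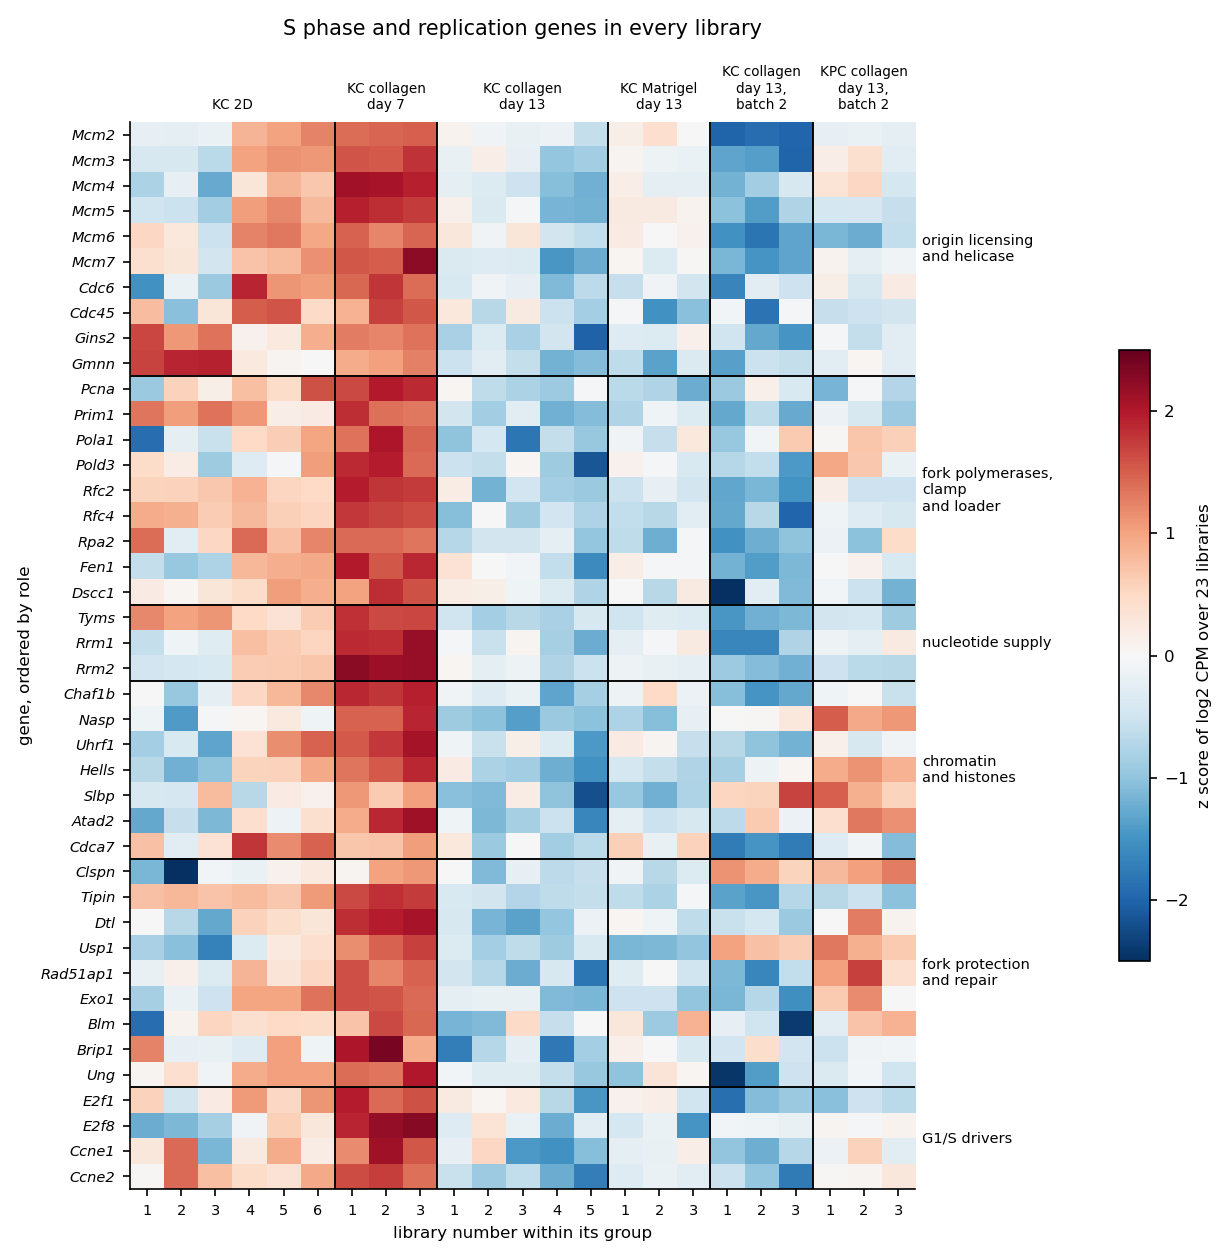
Heat map of the z score of log2 CPM for each of the 42 genes (lines, ordered by role) in each of the 23 libraries (columns, ordered by group). The 3 day 7 columns are high for nearly every gene, and the 2D columns change between library 3 and library 4.

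Since E2F factors are known regulators of such genes, the promoter windows of the members were searched for E2F motifs. The motifs were TTTCCCGC, TTTCGCGC, TTTGCCGC and TTTGGCGC on both strands, from 250 bases before to 50 after the RefSeq start (GRCm38.p6). Of the 42 genes, 32 had a window, and 12 of these (37.5%) held a match, against 2.6% of the 27025 symbols in the table. A CCAAT box was in 21 of the 32 (65.6%) and in 41.1% of all symbols. The 250 bases before the start are shown for 4 members, to let the position of the match be seen in helicase genes (Mcm5, Mcm6) and in chromatin genes (Hells, a remodelling ATPase, and Cdca7). Each is given 5' to 3' on the strand of the gene, with the bases of a match in capitals and overlapping matches as 1 run.
Mcm5, chr8:75109259-75109508, plus strand: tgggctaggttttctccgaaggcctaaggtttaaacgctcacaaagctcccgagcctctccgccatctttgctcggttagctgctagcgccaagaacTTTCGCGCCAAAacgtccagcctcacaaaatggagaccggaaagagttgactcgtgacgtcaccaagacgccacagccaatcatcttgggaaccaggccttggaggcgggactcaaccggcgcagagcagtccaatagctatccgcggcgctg
Mcm6, chr1:128359706-128359955, minus strand: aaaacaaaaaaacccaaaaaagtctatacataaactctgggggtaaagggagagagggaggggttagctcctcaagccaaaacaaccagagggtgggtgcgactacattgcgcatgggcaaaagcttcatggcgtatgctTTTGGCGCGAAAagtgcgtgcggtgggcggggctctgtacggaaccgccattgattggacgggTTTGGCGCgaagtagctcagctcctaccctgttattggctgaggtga
Hells, chr19:38930740-38930989, plus strand: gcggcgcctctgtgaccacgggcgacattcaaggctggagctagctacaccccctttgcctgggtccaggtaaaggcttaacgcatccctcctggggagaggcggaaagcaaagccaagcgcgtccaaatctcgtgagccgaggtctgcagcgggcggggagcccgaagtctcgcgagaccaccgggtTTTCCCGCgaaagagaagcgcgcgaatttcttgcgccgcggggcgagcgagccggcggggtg
Cdca7, chr2:72475969-72476218, plus strand: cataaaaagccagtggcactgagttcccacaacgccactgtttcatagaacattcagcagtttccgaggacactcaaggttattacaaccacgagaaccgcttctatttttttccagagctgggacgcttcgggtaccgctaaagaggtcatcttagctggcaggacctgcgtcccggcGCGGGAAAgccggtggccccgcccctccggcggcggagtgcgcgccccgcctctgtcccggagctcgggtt
Counted back from the start, the first bases of the matches lay at -153 and -149 in Mcm5, -110, -106 and -47 in Mcm6, -62 in Hells and -71 in Cdca7. These are matches of letters and no evidence of binding.

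The comparison of day 7 with day 13 in collagen asked how KC organoids differ between extension and lumen formation. All 42 genes were higher at day 7, with edgeR's quasi-likelihood test at an adjusted p under 0.1, and for all 42 the 3 day 7 libraries lay above the 5 day 13 libraries. All 42 were also called against day 13 libraries 1 to 3 alone and against libraries 4 and 5 alone. In those fits, 50.5% and 46.8% of all tested genes were called in either direction. With all 23 libraries in the fit, 28.1% of all tested genes were higher and 27.1% lower, and 48.3% did not overlap. The median log2 fold change of the 42 was 1.40, a fold of 2.65, with a range from 0.82 to 2.56, against a median of 0.01 over all tested genes. By role, the medians were 1.90 for the G1/S drivers, 1.79 for nucleotide supply, 1.52 for fork protection and repair, 1.40 for chromatin and histones, 1.32 for licensing and helicase, and 1.15 for polymerases, clamp and loader.

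The gene with the highest fold change was Rrm2, the S phase subunit of ribonucleotide reductase, which makes deoxyribonucleotides. Its level was 739, 677 and 702 CPM at day 7 and 153, 125, 135, 86.0 and 101 CPM at day 13. The groups were far apart, at a log2 fold change of 2.56 (SE 0.22, edgeR adjusted p = 8.1e-10). Its partner subunit Rrm1 was higher by 1.79 (SE 0.19, edgeR adjusted p = 3.4e-08). Tyms, thymidylate synthase, which makes dTMP, was at 146, 136 and 137 CPM against 55.6, 48.0, 51.2, 48.8 and 57.8 CPM. Every day 7 library had more than every day 13 library, by 1.42 on the log2 scale (SE 0.11, edgeR adjusted p = 1.9e-10).

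Both E-type cyclins were higher at day 7. Ccne2 was at 53.0, 55.8 and 45.6 CPM against 14.4, 11.5, 13.9, 9.40 and 6.83 CPM, a log2 fold change of 2.19 (SE 0.21, edgeR adjusted p = 3.9e-09). Ccne1 was at 12.7, 21.7 and 15.8 CPM against 5.56, 8.63, 2.39, 2.24 and 3.15 CPM, a log2 fold change of 1.93 (SE 0.33, edgeR adjusted p = 3e-05). The spread of Ccne1 among the day 13 libraries was wide, but none of them reached the lowest day 7 library. E2f1, an activator of S phase genes, was at 37.8, 31.4 and 33.2 CPM against 20.9, 19.7, 21.1, 15.2 and 11.6 CPM. The difference was 0.94 (SE 0.17, edgeR adjusted p = 6.5e-05), in the lower part of the range of the 42, and that of E2f8, a repressive member of the same family, was 1.87 (SE 0.23, edgeR adjusted p = 2.4e-07).

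The helicase subunits were all higher, from 1.01 for Mcm6 to 1.88 for Mcm4. Mcm2 was at 91.2, 94.1 and 95.9 CPM at day 7 and at 45.4, 41.2, 39.2, 39.9 and 31.5 CPM at day 13 (log2 fold change 1.24, SE 0.18, edgeR adjusted p = 3.7e-06). Mcm5 was at 77.5, 74.4 and 71.2 CPM against 33.4, 26.4, 30.6, 17.9 and 17.9 CPM (1.55, SE 0.22, edgeR adjusted p = 2.2e-06). For Mcm5 the last 2 day 13 libraries, numbers 4 and 5, were the lowest. Mcm6 was at 185, 164 and 182 CPM against 104.8, 87.8, 106, 73.9 and 68.3 CPM (1.01, SE 0.19, edgeR adjusted p = 7.4e-05). The same 2 libraries were again the lowest for Mcm6, and the groups did not overlap. Cdc6, the MCM loader, was higher by 1.41 (SE 0.30, edgeR adjusted p = 0.00033).

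The 3 genes with the least difference belonged to the polymerase and clamp group. Pcna, the sliding clamp, was at 99.0, 108 and 104.9 CPM against 66.3, 55.6, 53.6, 52.0 and 64.6 CPM, a log2 fold change of 0.83 (SE 0.14, edgeR adjusted p = 2e-05). Pold3, a subunit of DNA polymerase delta, was at 36.8, 37.6 and 33.2 CPM against 21.3, 21.1, 24.4, 19.7 and 14.7 CPM (0.82, SE 0.15, edgeR adjusted p = 4.6e-05). Rpa2, which coats single-stranded DNA, was at 38.7, 38.7 and 37.9 CPM against 20.4, 22.1, 22.01, 23.7 and 18.9 CPM (0.84, SE 0.15, edgeR adjusted p = 5.7e-05). Even for these genes no day 13 library reached the day 7 range.

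Among the chromatin genes, Chaf1b, a subunit of the histone chaperone that loads histones behind the fork, was higher by 2.01 (SE 0.23, edgeR adjusted p = 1.1e-07). Slbp was at 18.6, 15.9 and 18.3 CPM against 8.35, 8.15, 13.4, 8.51 and 5.25 CPM, a log2 fold change of 0.9963 (SE 0.22, edgeR adjusted p = 0.00053). In the repair group, Brip1, a helicase of the Fanconi anaemia pathway, was at 12.7, 15.1 and 7.25 CPM against 1.39, 2.88, 3.83, 1.34 and 2.63 CPM. Its difference of 2.26 (SE 0.33, edgeR adjusted p = 3.2e-06) rested on low levels, and the day 7 libraries themselves differed. Dtl, which directs CDT1 to degradation in S phase, was higher by 1.92 (SE 0.23, edgeR adjusted p = 1.7e-07).

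**Figure D3:**
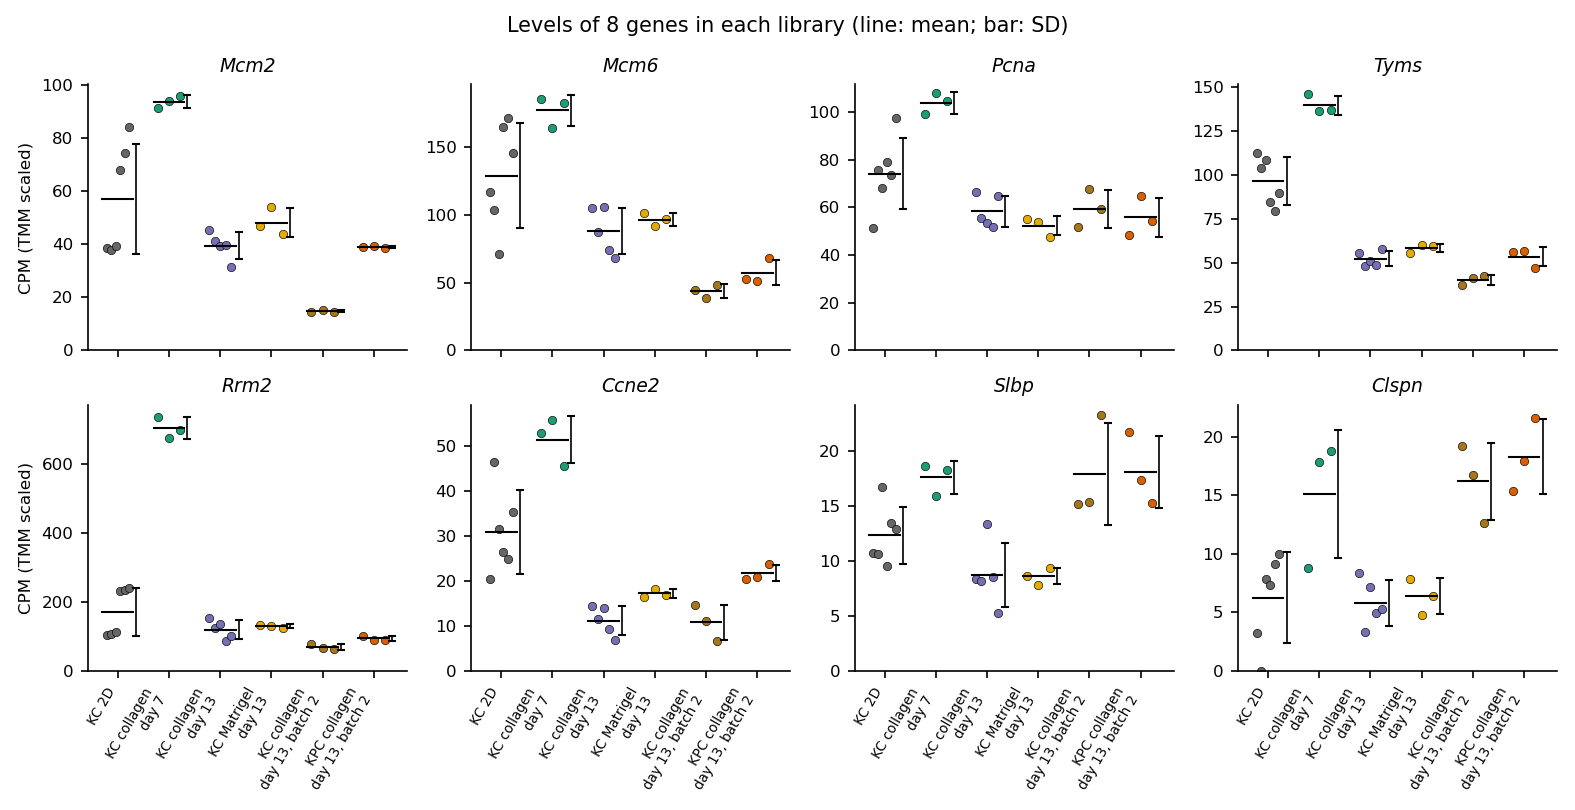
CPM in each library (points) with group means for Mcm2, Mcm6, Pcna, Tyms, Rrm2, Ccne2, Slbp and Clspn in the 6 groups. Day 7 collagen has the highest mean for the genes other than Slbp and Clspn, and the 3 Mcm2 values of KC organoids of batch 2 (14.6 to 15.3 CPM) lie below every other library.

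Most replication genes outside the 42 were also higher at day 7. Of 80 tested genes in lists of further licensing, fork, nucleotide, chromatin and repair genes, 67 were higher at day 7 and 0 lower (0.986 at the median, log2). The 80 included Pole, the catalytic subunit of polymerase epsilon, at 2.51 (SE 0.32, edgeR adjusted p = 4.5e-07) and Dbf4, which activates the CDC7 kinase at origins, at 2.15 (SE 0.18, edgeR adjusted p = 5.7e-10). Of 54 genes of G2 and mitosis, 53 were higher and 0 lower, with Mki67, the Ki67 antigen, at 1.64 (SE 0.28, edgeR adjusted p = 3.2e-05). Of 26 regulators of the G1/S step, 13 were higher and 5 lower. The lower ones included Cdkn1a, the CDK inhibitor p21, at -0.49 (SE 0.13, edgeR adjusted p = 0.0039), and Ccnd2, cyclin D2, at -1.47 (SE 0.17, edgeR adjusted p = 9.8e-08), whose levels were 352 ± 19.4 CPM (n = 3) at day 7 and 976 ± 107 CPM (n = 5) at day 13. Leukocyte markers summed to 3.41 to 5.88 CPM at day 7 and 12.1 to 21.5 CPM at day 13, and ductal markers to 11294 to 12735 and 9649 to 11663 CPM. Singly, 2 of the 7 ductal markers were called higher at day 7 and 3 lower, with a median log2 fold change of -0.09. The mitochondrial share was 3.37 to 4.09% at day 7. The part of these in the difference was not tested.

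The comparison of KPC with KC organoids asked how the genotypes differ in the expression of these genes, within batch 2 at day 13. Of the 42 genes, 15 were higher in KPC and 0 lower, where 9.58% of all tested genes were higher and 10.4% lower. For 25 genes the KPC libraries lay above the KC libraries and for 0 below, where 37.3% of all tested genes did not overlap. The median log2 fold change of the 42 was 0.52. DESeq2 called 12 of them, and its share of all tested genes called is not given.

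Mcm2 was among the clearest of these. It was at 39.0, 39.5 and 38.5 CPM in KPC and at 14.6, 15.3 and 14.7 CPM in KC, so that the libraries of each genotype were nearly equal and the genotypes far apart (log2 fold change 1.39, SE 0.27, edgeR adjusted p = 0.00076). Against all 8 KC collagen libraries of day 13, batch 1 included, the difference of Mcm2 was 0.33 (edgeR adjusted p = 0.47). Rad51ap1, a cofactor of homologous recombination, was at 13.4, 18.6 and 10.03 CPM against 4.64, 3.49 and 5.998 CPM (1.55, SE 0.32, edgeR adjusted p = 0.0011). Exo1, a 5' to 3' exonuclease, was at 7.67, 10.2 and 5.28 CPM against 2.65, 3.49 and 2.00 CPM (1.48, SE 0.44, edgeR adjusted p = 0.024). The last 2 genes had low levels and wide spreads in KPC, but no overlap. Other called helicase genes were Mcm3, at 1.18 (SE 0.30, edgeR adjusted p = 0.0076), and Mcm7, at 0.81 (SE 0.23, edgeR adjusted p = 0.017).

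Other called members were Ccne2, Hells, Chaf1b, Rrm1, Dtl, Fen1, Rfc4, Nasp, Rfc2 and Tyms, so that each of the 6 roles held at least 1. Ccne2 was at 20.4, 20.9 and 23.8 CPM against 14.6, 11.2 and 6.66 CPM (1.01, SE 0.29, edgeR adjusted p = 0.02). The lowest differences that passed were small. Tyms was at 56.2, 56.9 and 47.0 CPM against 37.1, 41.1 and 42.6 CPM (0.40, SE 0.15, edgeR adjusted p = 0.068). Rfc2, of the clamp loader, was at 50.5, 40.7 and 40.6 CPM against 31.8, 33.5 and 30.0 CPM (0.46, SE 0.15, edgeR adjusted p = 0.038). Nasp, a histone chaperone, was at 51.1, 42.5 and 44.3 CPM against 31.1, 31.4 and 34.0 CPM (0.51, SE 0.16, edgeR adjusted p = 0.026). In each of these the lowest KPC library was above the highest KC library.

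Not all S phase genes passed the test between the genotypes. Pcna was at 48.5, 64.6 and 54.4 CPM in KPC and 51.6, 67.6 and 59.3 CPM in KC, with a log2 difference of -0.09 (SE 0.17, edgeR adjusted p = 0.8). Slbp was at 21.7, 17.4 and 15.3 CPM against 15.2, 15.3 and 23.3 CPM, with 0.00 (SE 0.25). The genotypes overlapped in both. E2f1 was at 13.4, 16.2 and 15.3 CPM against 9.93, 13.2 and 13.99 CPM, with 0.27 (SE 0.25, edgeR adjusted p = 0.53), and overlapped too. Rrm2 was at 102, 91.0 and 89.7 CPM against 77.5, 67.6 and 62.6 CPM without overlap, yet its difference of 0.44 (SE 0.28, edgeR adjusted p = 0.33) did not pass. Mcm5 was at 25.6, 25.7 and 23.8 CPM against 19.2, 16.0 and 21.99 CPM (0.39, SE 0.32, edgeR adjusted p = 0.48). Mcm6 was at 53.0, 50.9 and 68.1 CPM against 44.4, 38.3 and 48.6 CPM (0.39, SE 0.25, edgeR adjusted p = 0.33). Ccne1 was at 5.75, 8.98 and 5.28 CPM against 3.31, 2.79 and 3.998 CPM (0.96, SE 0.52, edgeR adjusted p = 0.25). For these 3 genes too every KPC library lay above every KC library, and none passed.

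Around these genes, 16 of the 80 further replication genes were higher in KPC and 0 lower, with Timeless, of the fork protection complex, at 2.28 (SE 0.68, edgeR adjusted p = 0.024). Of the 54 genes of G2 and mitosis, 23 were higher and 1 lower, and Mki67 was at 83.7 ± 1.58 against 66.5 ± 9.50 CPM (n = 3 each, 0.33, SE 0.32, edgeR adjusted p = 0.56). Of the 26 G1/S regulators, 7 were higher and 4 lower. Cdkn2a, which encodes the inhibitors p16 and ARF, was at 216 ± 16.8 CPM in KPC and 8.06 ± 3.44 CPM in KC (4.73, SE 0.30, edgeR adjusted p = 3.6e-11), and Cdkn1a at 304 ± 46.3 against 1005 ± 153 CPM (-1.72, SE 0.15, edgeR adjusted p = 1.3e-08). Leukocyte markers summed to 5.39 to 11.6 CPM in KPC and 18.7 to 21.2 CPM in KC, and their part was not tested. With each genotype taken as 1 line, the genotype and the line cannot be told apart. When each library was left out in turn, Mcm2, Mcm3, Mcm7, Rad51ap1 and Rrm1 passed every time. Over all alternatives run, Mcm7 and Rad51ap1 were the 2 of the 15 that passed under each that tested them. Left out singly, KC replicates 1, 2 and 3 each took calls away (5, 4 and 7 of the 15). KPC replicates 1, 2 and 3 did so too (6, 6 and 1 of the 15). Without KC replicate 3, 9 genes passed. The share of all tested genes called in these fits is not given, so the losses may not be particular to the members.

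**Figure D4:**
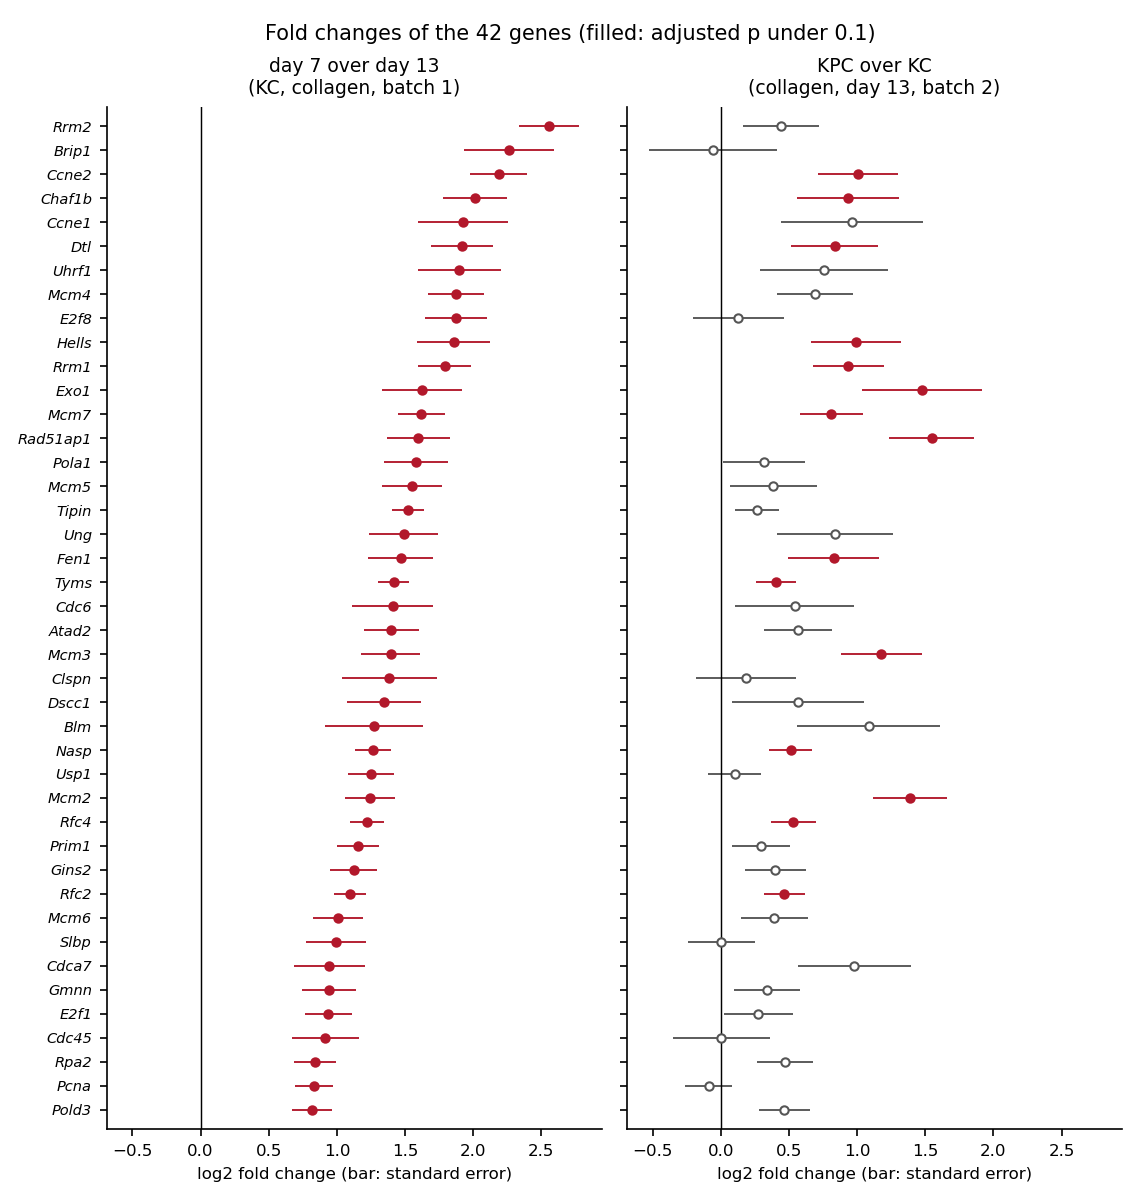
Log2 fold change ± SE of each of the 42 genes for day 7 over day 13 (KC, batch 1) and for KPC over KC (day 13, batch 2). In both panels the genes are ordered by their log2 fold change of day 7 over day 13. Filled points passed an adjusted p of 0.1 by edgeR, which was the case for 42 genes in the first comparison and 15 in the second.

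Most of the 42 genes were lower in 2D than at day 7 in collagen. Most were also higher than at day 13 when the 6 2D libraries were pooled, but 13 were with 2D libraries 1 to 3 alone and 18 with scaling by library size alone. In the latter 2 fits, 54.9% and 47.6% of all tested genes were called in either direction. Against day 7, 36 were lower in 2D and 0 higher (24.8% of all tested genes were lower, 26.4% higher, and 32.3% did not overlap), with a median of -0.75. Against day 13, 36 were higher in 2D and 0 lower (26.3% higher, 23.3% lower, and 20.3% without overlap), with a median of 0.64. The 2D libraries serve in both comparisons, and the day 13 libraries of batch 1 serve in several, so these counts are not independent of each other. For 28 genes the 2D libraries lay below all day 7 libraries, and for 9 above all day 13 libraries.

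The genes furthest below day 7 were Rrm2, E2f8 and Mcm4. Rrm2 in 2D ran from 105.2 to 241 CPM with a median of 172, all below the day 7 libraries (-2.01, SE 0.21, edgeR adjusted p = 4.7e-08). E2f8 ran from 5.37 to 15.4 CPM with a median of 8.70 in 2D, against 30.9, 36.03 and 37.5 CPM (-1.75, SE 0.23, edgeR adjusted p = 1.5e-06). Mcm4 ran from 17.7 to 50.4 CPM with a median of 34.4, against 92.7, 91.0 and 85.7 CPM (-1.31, SE 0.20, edgeR adjusted p = 1.1e-05). None of these 3 overlapped with day 7. For all 3 the 2D median fell between libraries 1 to 3 and libraries 4 to 6, where no library lay. The same holds for the 2D medians of Mcm6, Cdca7, Mcm5 and Tyms given below. The called genes least below day 7 were Pcna, Mcm6 and Prim1, of the primase that starts each new strand. Pcna in 2D was 51.5 to 97.7 CPM with a median of 74.6 (-0.47, SE 0.14, edgeR adjusted p = 0.0069). Mcm6 was 71.0 to 171 CPM with a median of 131 (-0.43, SE 0.18, edgeR adjusted p = 0.053). Prim1 was 27.8 to 42.4 CPM with a median of 38.1, against 50.01, 42.6 and 41.8 CPM (-0.34, SE 0.15, edgeR adjusted p = 0.063). Pcna did not overlap with day 7, and Mcm6 and Prim1 did. The 6 genes that did not pass were Cdc6, Cdc45, Gins2, Rpa2, Gmnn and Cdca7, between -0.53 and 0.20.

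Against day 13, the genes furthest above were Ccne2, Cdca7 and Brip1. Ccne2 in 2D was 20.4 to 46.6 CPM with a median of 29.0, above all 5 day 13 libraries (1.43, SE 0.20, edgeR adjusted p = 3.6e-06). Cdca7 was 12.6 to 37.4 CPM with a median of 24.4, against 16.7, 8.63, 14.4, 8.96 and 9.98 CPM (1.15, SE 0.23, edgeR adjusted p = 0.00028). Brip1 was 3.65 to 8.59 CPM with a median of 4.03 (1.11, SE 0.35, edgeR adjusted p = 0.012). Cdca7 and Brip1 overlapped between the groups. At the low end of those called were Pold3, with 19.7 to 30.6 CPM and a median of 24.6 (0.29, SE 0.14, edgeR adjusted p = 0.089), Pcna (0.36, SE 0.12, edgeR adjusted p = 0.02) and E2f1, with 16.5 to 28.3 CPM and a median of 23.3 (0.43, SE 0.16, edgeR adjusted p = 0.034). These 3 overlapped with day 13, and E2f8, Usp1, Clspn, Atad2, Fen1 and Blm did not pass.

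The remaining members with values in every group were Mcm5, Tyms, Ccne1 and Slbp. In 2D, Mcm5 was 20.7 to 55.2 CPM with a median of 35.3 and Tyms 79.7 to 113 CPM with a median of 96.6. Ccne1 was 2.96 to 14.6 CPM with a median of 7.41, and Slbp 9.59 to 16.8 CPM with a median of 11.8. All 4 were called against both collagen groups, and Tyms alone of these overlapped with neither. The Slbp call was lost under 7 of the alternatives run against day 7 and under 16 against day 13. Against day 13, Mcm5 lost its call under 3 and Ccne1 under 1, and both kept it throughout against day 7. Tyms kept both calls throughout. Left out singly, the libraries left 30 of the 36 calls against day 7 and 29 of the 36 against day 13 in place every time.

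The 2 sets of 2D libraries differed for many members. In libraries 4 to 6, 23 genes lay above libraries 1 to 3, 3 lay below and 16 overlapped, with a median ratio of 1.54, and 47.5% of all tested genes did not overlap. Mcm2 was at 38.7, 37.8 and 39.4 CPM in libraries 1 to 3 and 68.0, 74.4 and 84.2 CPM in libraries 4 to 6. Rrm2 was at 105.2, 108 and 113 CPM against 231, 235 and 241 CPM. Gmnn went the other way, with 127, 138 and 138 CPM against 75.3, 70.6 and 68.9 CPM, as did Gins2 and Tyms. For each of the 3 genes the sets did not overlap. With libraries 1 to 3 alone, 13 genes were higher than at day 13 and 0 lower, where 54.9% of all tested genes were called in either direction in that fit. With libraries 4 to 6 alone, 37 were higher and 0 lower, where 39.2% of all tested genes were called. With libraries 1 to 3 alone the log2 difference from day 13 was below 0 for 8 of the 36 called genes, namely Mcm2, Mcm3, Mcm4, Mcm5, Cdc6, Rrm2, Uhrf1 and Hells. Against day 7, the sets gave 37 genes (36 lower and 1 higher) and 33 genes (32 lower and 1 higher), where 57.4% and 46.2% of all tested genes were called. Against day 13 libraries 1 to 3 alone, 21 genes were higher in 2D (38.8% of all tested genes were called), and against libraries 4 and 5 alone, 34 were (42.8%). Ductal markers summed to 7161 to 10310 CPM in 2D, below the 11294 to 12735 CPM of day 7, with 4 of 7 called lower and 2 higher than at day 7. Leukocyte markers summed to 4.11 to 18.3 CPM, fibroblast markers to 61.5 to 187 CPM and Cela1 to 4.57 to 20.4 CPM in 2D, where day 7 held 3.41 to 5.88, 54.6 to 88.7 and 2.98 to 3.43 CPM. Of the tested markers, 1 of 1 leukocyte, 1 of 3 fibroblast and 1 of 1 acinar genes were higher in 2D than at day 7. The part of these markers, depth and mitochondrial share in the 2D levels was not tested.

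In lists beside the 42, 2D was lower than day 7 for 48 of 80 further replication genes and higher for 4, and higher than day 13 for 45 and lower for 0. Of the 54 genes of G2 and mitosis, 48 were lower than at day 7 and 1 higher, and 33 were higher than at day 13 and 1 lower. Of the 26 G1/S regulators, 5 were higher and 13 lower than at day 7, and 9 higher and 5 lower than at day 13. Cdkn1a was at 197 ± 12.4 CPM (n = 6) in 2D, below day 7 (-0.41, SE 0.13, edgeR adjusted p = 0.013) and below day 13 (-0.90, SE 0.11, edgeR adjusted p = 7.6e-07).

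The comparison of Matrigel with collagen at day 13 asked how the matrix goes with these genes in KC organoids. None of the 42 passed the test, that is 0 by edgeR and 0 by DESeq2, where 6.62% of all tested genes were higher in Matrigel and 6.29% lower. At an unadjusted p under 0.05 there were 3 genes, Mcm7, Cdca7 and Ccne2, all higher in Matrigel, against 21.6% of all genes in either direction. The log2 difference was above 0 for 34 genes, with a median of 0.19 and a range from -0.29 to 0.81. The standard errors had a median of 0.24 and reached 0.41. Differences larger than these did not pass either, such as Ccne2 at 0.61 (SE 0.24) and Brip1 at 0.81 (SE 0.40). The test could therefore miss differences of that size.

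Ccne2 came nearest to the threshold. It was at 16.5, 18.3 and 16.9 CPM in Matrigel, above all 5 collagen libraries (0.61, SE 0.24, edgeR adjusted p = 0.12). Gins2, of the helicase complex, was the other gene that lay above all collagen libraries (0.34, SE 0.18, edgeR adjusted p = 0.3), and Usp1, a deubiquitinase of PCNA, lay below all of them (-0.29, SE 0.19, edgeR adjusted p = 0.42). The 39 other genes overlapped, where 19.5% of all tested genes did not. Brip1 was at 4.72, 4.36 and 3.50 CPM in Matrigel (0.81, SE 0.40, edgeR adjusted p = 0.24).

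The other members with values given at day 13 in collagen had these values in Matrigel. Mcm2 was at 46.8, 54.1 and 43.7 CPM (0.29, SE 0.20). Mcm5 was at 35.0, 34.9 and 32.6 CPM (0.44, SE 0.24). Mcm6 was at 101, 92.0 and 96.7 CPM (0.13, SE 0.19). Each of the 3 helicase genes overlapped with its collagen range. Rrm2 was at 135, 130 and 125 CPM (0.11, SE 0.23). Tyms was at 55.5, 60.2 and 59.4 CPM (0.16, SE 0.12). Pcna was at 55.1, 54.1 and 47.8 CPM (-0.15, SE 0.15), with 1 library below all of collagen. Both nucleotide genes overlapped with collagen as well. E2f1 was at 20.1, 20.5 and 16.3 CPM (0.11, SE 0.19). Ccne1 was at 5.51, 5.67 and 6.99 CPM (0.44, SE 0.40). Slbp was at 8.66, 7.85 and 9.32 CPM (-0.03, SE 0.25). All 9 overlapped with collagen and none passed the test. Of the 80 further replication genes, 4 were higher in Matrigel and 0 lower, namely Pole (1.37, SE 0.37, edgeR adjusted p = 0.016), Topbp1 (0.76, SE 0.23, edgeR adjusted p = 0.035), Zbtb38 and Tonsl. Of the 54 genes of G2 and mitosis, 2 were higher and 0 lower, and of the 26 G1/S regulators, 2 were higher and 2 lower. Against day 13 libraries 4 and 5 alone, 5 of the 42 passed, named here after their values were seen, namely Mcm5, Mcm7, Rrm1, Chaf1b and Ccne2, all higher in Matrigel, where 9.5% of all tested genes were called in either direction. Against libraries 1 to 3 alone, 0 passed, where 11.3% of all tested genes did. Leukocyte markers summed to 30.3 to 36.2 CPM in Matrigel and 12.1 to 21.5 CPM in collagen, and their part in these values was not tested.

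The same condition, KC organoids in collagen at day 13, was measured in both batches. Batch 2 had 4 of the 42 genes higher and 13 lower, where 19.3% of all tested genes were higher and 18.1% lower. Their libraries did not overlap for 11 genes, 4 above and 7 below, where 35.9% of all tested genes did not overlap. The median of the 42 was -0.31.

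Of the 4 genes higher in batch 2, 2 were of the chromatin and histone role and 2 of fork protection and repair. Each of these roles also held 1 gene called lower. Clspn was at 19.2, 16.7 and 12.7 CPM in batch 2 and at 8.35, 3.36, 7.18, 4.93 and 5.25 CPM in batch 1 (1.47, SE 0.37, edgeR adjusted p = 0.0037). Slbp was at 15.2, 15.3 and 23.3 CPM in batch 2 (1.03, SE 0.24, edgeR adjusted p = 0.0016). Usp1 was at 55.6, 49.5 and 47.3 CPM against 31.5, 25.4, 27.8, 25.1 and 31.0 CPM (0.85, SE 0.18, edgeR adjusted p = 0.00085). Together with Nasp (0.55, SE 0.15, edgeR adjusted p = 0.0062), these were the 4 genes without overlap upward.

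The genes furthest lower were helicase subunits and Cdca7. Mcm2 in batch 2, at 14.6 to 15.3 CPM, was below the lowest batch 1 library, at 31.5 CPM (-1.41, SE 0.25, edgeR adjusted p = 0.00011). Cdca7 was at 5.30, 6.28 and 5.33 CPM in batch 2 (-1.05, SE 0.37, edgeR adjusted p = 0.033). Mcm6 was at 44.4, 38.3 and 48.6 CPM in batch 2 (-1.01, SE 0.22, edgeR adjusted p = 0.00096). None of these 3 overlapped with batch 1. All 3 nucleotide genes were lower, with Rrm2 at -0.79 (SE 0.25, edgeR adjusted p = 0.018) and Tyms at -0.37 (SE 0.13, edgeR adjusted p = 0.033), while Pcna was at 0.03 (SE 0.15, edgeR adjusted p = 0.92). Clspn, Mcm2, Mcm6, Nasp, Rrm2, Slbp and Usp1 passed whichever library was left out. Each of the 8 libraries took away between 1 and 9 calls, and without batch 2 replicate 1 there were 10 genes. For these fits too the share of all tested genes called is not given, so the losses may not be particular to the members. Against day 13 libraries 4 and 5 of batch 1 alone, 6 genes passed (4 higher and 2 lower, where 20.8% of all tested genes were called), and against libraries 1 to 3 alone, 18 did (4 higher and 14 lower, 38.9%). Totals were 1526771 to 1573866 counts in these libraries of batch 2 and 1844157 to 2097989 in batch 1, with 5.59 to 6.18% and 3.01 to 4.83% mitochondrial counts, whose part was not tested.

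Of the 54 genes of G2 and mitosis, 15 were higher and 10 lower in batch 2, and Mki67 was higher by 1.14 (SE 0.30, edgeR adjusted p = 0.0056). Of the 80 further replication genes, 9 were higher and 17 lower, and of the 26 G1/S regulators, 7 were higher and 8 lower. Cdkn1a was at 1005 ± 153 CPM (n = 3) in batch 2 and 367 ± 69.0 CPM (n = 5) in batch 1 (1.45, SE 0.13, edgeR adjusted p = 9.3e-09). KPC organoids were measured in batch 2 alone, and 2D, day 7 and Matrigel cultures in batch 1 alone, so levels of these set across batches mix condition and batch.

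**Figure D5:**
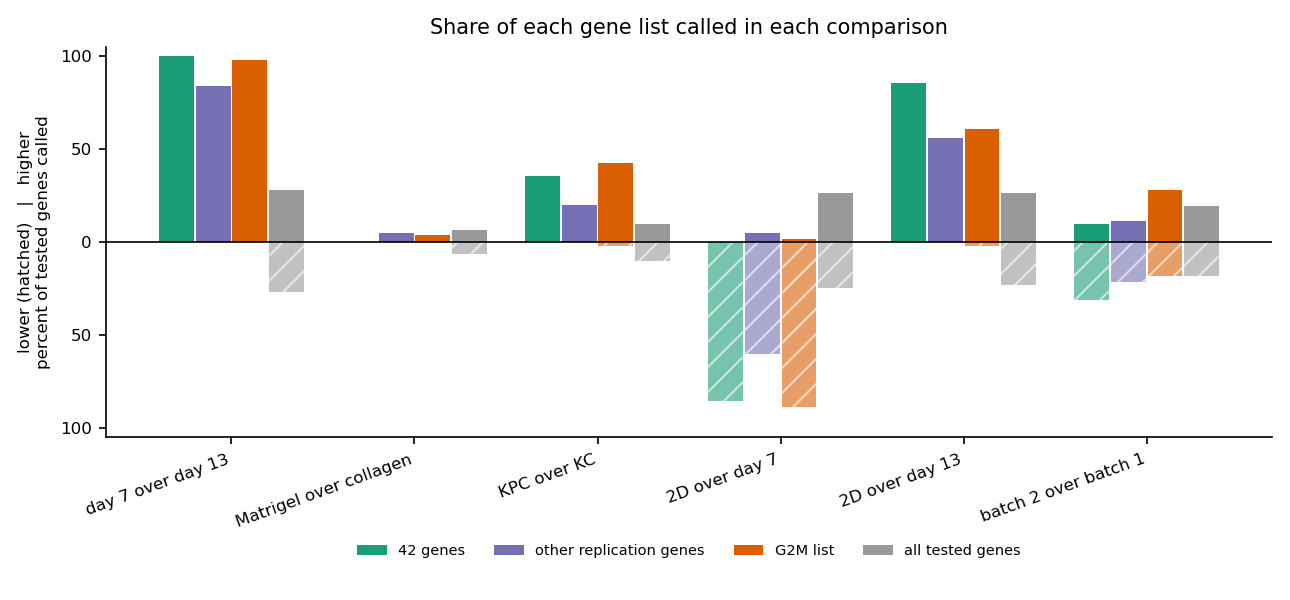
Percent of genes called higher (plain bars) or lower (hatched bars) in each of the 6 comparisons, for the 42 members, 80 further replication genes, 54 genes of G2 and mitosis and all 11144 tested genes, from 0. The members reach 100% higher at day 7, and 0% in Matrigel against collagen.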

How the data were processed

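The authors made the deposited counts with the Drop-seq pipeline, aligning 3' reads to GRCm38 with GENCODE annotation and counting unique molecular barcodes per gene, and gave 1 raw count per gene and library. Labels gave the group, batch and replicate number. Counts were normalised by TMM, and genes were kept by filterByExpr. A single model of the 23 libraries was fitted with edgeR 4.0.16 in R 4.3.3 (quasi-likelihood F-test), and p-values were adjusted by Benjamini-Hochberg over the 11144 genes tested, with 0.1 as the threshold, which the study's methods also used. The standard error is the absolute log2 fold change over the square root of F. Log2 CPM used a prior count of 2. DESeq2 1.42.0 was an alternative, and the test was checked on simulated counts. The 42 members and the other gene lists were chosen with earlier results of these data known. Values in every library are given for Pcna, Mcm2, Mcm5, Mcm6, Rrm2, Tyms, Ccne1, Ccne2, E2f1 and Slbp, and for the 3 called members with the highest and the 3 with the lowest log2 fold change in each comparison (in 2D the range and median). From the other lists, Mki67, Cdkn1a and called genes at the ends of the range are named. Replicate numbers did not pair the libraries. Depth limits low genes most, and a count of 0 allows up to 3 counts. Further alleles of the KC and KPC mice are not reported here.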

Additional observations from a re-analysis of the deposited data

Results flagged for a closer look

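Members and their summary scores were examined for a library far from its group, in 86 sets of 5 or 6 library values. The sets came from 2D and from day 13 collagen of batch 1, and the groups of 3 libraries were not examined. Of the 86 sets, 3 stood apart, all in 2D, where chance alone gives about 1 in 20. Nasp was at 19.4 CPM in 2D library 2, where the others held 30.0 to 33.6 CPM. Tipin, of the fork protection complex, was at 80.1 CPM in 2D library 6, where the others held 67.2 to 71.8 CPM. Blm, the RecQ helicase, was at 1.07 CPM in 2D library 1, where the others held 3.88 to 4.93 CPM.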

How the results depend on the processing

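Every one of the 42 genes was higher at day 7 in each fit without 1 library (42 to 42 genes), and 41 were called under every alternative that tested them (the exception was Clspn, at 0.72 against all 8 KC collagen libraries of day 13). Under every alternative, 2 of 15 calls were kept for KPC (Mcm7 and Rad51ap1), 28 of 36 for 2D against day 7, 12 of 36 for 2D against day 13 and 5 of 17 between batches (Clspn, Slbp, Usp1, Mcm2 and Mcm6). With at least 10 counts in every library, 27 members could be tested and 27 were called. The Matrigel count of 0 became 1 under that filter, 2 with only the compared groups in the fit, 3 with all 8 KC collagen libraries of day 13, 5 against day 13 libraries 4 and 5 alone, and 0 to 1 without single libraries (1 without collagen replicate 1). The KPC count was 9 to 17 without single libraries and 11 to 22 under the other alternatives, against 15 in the main fit. Against day 7, the 2D count was 32 to 36 without single libraries. Against day 13, the 2D count was 18 with library size alone, 13 with 2D libraries 1 to 3, 21 with day 13 libraries 1 to 3, and 31 to 37 without single libraries. Of all tested genes, 47.6%, 54.9% and 38.8% were called in either direction in the fits that gave 18, 13 and 21. With 2D libraries 1 to 3 alone, 8 members turned below day 13, namely Mcm2 at -0.014, Mcm3 at -0.065, Mcm4 at -0.035, Mcm5 at -0.10, Cdc6 at -0.22, Rrm2 at -0.12, Uhrf1 at -0.37 and Hells at -0.17 (log2). The batch count was 11 with DESeq2, 11 at an adjusted p under 0.05, 6 with day 13 libraries 4 and 5, and 10 to 18 without single libraries. With z scores over batch 1 alone, the score was 1.46 at day 7, -0.458 in Matrigel, -1.09 in KC of batch 2 and -0.178 in KPC. The Matrigel score was -0.0805 with library size alone, and that of day 13 collagen was -0.922 for libraries 4 and 5. The 27 follows from fewer members tested, and the cause of the other shifts was not tested. Library size alone moved the median of all genes by 0.133 (KPC), -0.137 and -0.196 (2D against day 7 and day 13) and -0.181 (batch). With the replicate block the counts were 42, 0, 13, 36 and 30, in the order of day 7, Matrigel, KPC, 2D against day 7 and 2D against day 13, and the correlations of same-numbered libraries ran from -0.119 to 0.188. Where a count is given without the share of all tested genes called in its fit, its change may not be particular to the 42. Of 2812 alternative values for 146 called member results, 2535 kept their direction and their side of the threshold, 269 lost the call and 8 reversed. Splits of the 2D and of the day 13 libraries were chosen after seeing the data. Of differences that were not called, 17 of 42 changed sign under some alternative in Matrigel, 10 of 27 in KPC, 3 of 6 and 5 of 6 in 2D, and 17 of 25 between batches. Genes near 3 counts in a library, such as Clspn in 2D library 2 at 0 counts, which allows up to 2.91 CPM, carry wide counting error.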
